A study of Mus musculus with 24 samples.

Results

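Accessibility was examined at the genes of 9 repressive chromatin regulators that work against the histone acetyltransferase CREBBP. They were the histone deacetylases Hdac1, Hdac2 and Hdac3, the corepressor Ncor1, the polycomb repressive complex 2 (PRC2) subunits Ezh2, Eed and Suz12, the histone demethylase Kdm1a and the BCL6 corepressor Bcor. Members were the consensus ATAC-seq peaks that overlapped the gene body of one of these genes extended by 20 kb on each side, and 67 of the 65483 peaks in the table met this rule. Bcor held 15 of them, Ezh2 12, Ncor1 9, Hdac1 8, Eed 7, Suz12 5, Hdac3 and Kdm1a 4 each and Hdac2 3. Of the 67, 13 lay within 1 kb of a coding start of the member itself, 6 within 1 kb of a coding start of a neighbouring gene, 29 elsewhere in a gene body and 19 in a flank.

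CREBBP acetylates histones at enhancers, and histone deacetylases take such marks off again. HDAC3 does so as the catalytic partner of the corepressor NCOR1, while HDAC1 and HDAC2 sit together in the NuRD, SIN3 and CoREST complexes, the last of which also holds the demethylase KDM1A. In germinal centre (GC) B cells, the B cells that expand and mutate their antibody genes after antigen contact, the repressor BCL6 recruits the corepressors NCOR1 and BCOR, and the PRC2 methyltransferase EZH2, with its partners EED and SUZ12, is known to be abundant and to silence genes together with BCL6 and BCOR. ATAC-seq reads how open the DNA at these genes is, not how much of each protein a cell contains.

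The 17 libraries came from GC B cells sorted from the spleen of mice immunized with sheep red blood cells (SRBC) 10 days earlier, 1 library per mouse. The 4 WT mice carried Cg1Cre+/- alone, the 4 C mice Cg1Cre+/- with Crebbp fl/+, the 4 K mice Cg1Cre+/- with Kmt2d fl/+, and the 5 CK mice Cg1Cre+/- with both floxed alleles. All 17 mice thus carried the Cre, which is driven from the Cγ1 immunoglobulin locus and deletes 1 allele of each floxed gene in GC B cells only after their activation, and the background was C57BL/6J. The sort took 60000 B220+ CD38- FAS+ cells per library and the stated age was 8 weeks. Accessibility at Crebbp and Kmt2d does not measure the deletion and was not used as a check of genotype. C, K and CK were each compared with the same 4 WT mice, so these comparisons share their controls.

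Depth ran from 17483706 to 21857738 fragments in peaks per library, and the member peaks between 4.12 and 2226 fragments on average per library (median 88.9). Mice of the study are described as female. However, 9 libraries (WT 1 and 2, C 1 and 2, K 1, 3 and 4, CK 1 and 4) held 1421 to 1742 fragments in peaks on the Y chromosome. The other 8 held 0 or 1. Peaks on the X chromosome took 1.46% to 1.51% of the fragments in the 9 and 1.59% to 1.62% in the 8. The 9 thus do not match the description as female, and the Y signal is spread unevenly over the genotypes. Bcor lies on the X chromosome, and its values are therefore given with this split beside them. Among marker genes, 10 of 10 GC B-cell genes had a promoter peak, with summed levels of 652 to 782 CPM (counts scaled to library size) across the 17 libraries. Promoter peaks were lacking at the T-cell genes Cd3e, Cd3g, Cd4 and Cd8a, leaving 1 of 5 T-cell genes (Lck), and were present at 1 of 4 myeloid, 2 of 3 plasma-cell and 3 of 4 naive and memory B-cell genes. Both erythroid genes had a promoter peak, and their summed level was 20.8 to 23.4 CPM in WT, 10.0 to 14.2 in C, 11.4 to 20.2 in K and 10.9 to 13.4 in CK, a difference carried by the globin gene Hbb-bt (log2 fold change -1.12 in C, edgeR adjusted p = 0.000565, and -1.06 in CK, adjusted p = 4.8e-05). Its part in the results below was not tested.

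Between CK and WT, 6 of the 67 peaks passed the test, and a stretch of 200 bases at or near the centre of each is printed to show what these elements look like. The bases are on the strand of the gene, from GRCm38, and hold no annotated exon. Capitals mark matches to 7 short motifs searched on both strands: GAGGAAGT (PU.1), ATGCAAAT (octamer), TGANTCA (AP-1), TGTGGTT (RUNX), CAGGTG (E protein), TTCNNNGAA (STAT) and GGGCGG (SP and KLF).
Hdac1 intron, chr4:129525514-129525713: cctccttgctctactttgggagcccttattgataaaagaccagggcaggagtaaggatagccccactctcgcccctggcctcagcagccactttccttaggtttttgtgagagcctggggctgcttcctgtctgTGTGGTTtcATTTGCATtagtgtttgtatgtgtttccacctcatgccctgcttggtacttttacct
Ncor1 3′ part, chr11:62330596-62330795: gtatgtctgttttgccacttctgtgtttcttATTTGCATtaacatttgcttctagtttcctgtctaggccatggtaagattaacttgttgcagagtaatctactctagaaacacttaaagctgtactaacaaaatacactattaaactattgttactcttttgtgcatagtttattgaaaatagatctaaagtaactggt
Ezh2 intron, chr6:47561300-47561499: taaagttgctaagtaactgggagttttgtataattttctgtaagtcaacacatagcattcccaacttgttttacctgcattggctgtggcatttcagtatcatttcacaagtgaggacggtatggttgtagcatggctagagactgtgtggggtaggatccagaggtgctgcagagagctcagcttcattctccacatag
Eed intron, chr7:89957494-89957693: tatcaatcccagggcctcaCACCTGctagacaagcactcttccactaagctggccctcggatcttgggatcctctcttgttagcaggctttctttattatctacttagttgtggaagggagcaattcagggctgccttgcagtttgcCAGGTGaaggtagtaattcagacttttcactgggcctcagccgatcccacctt
Bcor internal start, chrX:12129217-12129416: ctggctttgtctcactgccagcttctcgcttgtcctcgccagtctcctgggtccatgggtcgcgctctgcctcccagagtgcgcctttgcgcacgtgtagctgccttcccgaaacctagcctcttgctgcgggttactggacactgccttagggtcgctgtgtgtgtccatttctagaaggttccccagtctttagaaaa
Bcor first start, chrX:12159359-12159558: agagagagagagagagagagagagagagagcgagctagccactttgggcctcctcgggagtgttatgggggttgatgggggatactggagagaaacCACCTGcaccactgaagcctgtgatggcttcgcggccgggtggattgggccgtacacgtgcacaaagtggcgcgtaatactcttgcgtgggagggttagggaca
The octamer, the site of OCT1 and OCT2, was found in the Hdac1 and the Ncor1 stretch, and in 2.84% of the 200-base centres of all 65483 peaks. The Hdac1 stretch also held the RUNX motif, which 5.72% of all centres held and which lies next to the octamer without overlapping it. The E-protein motif stood in the Eed stretch, with 2 matches, and in the first Bcor stretch, with 1, against 16.9% of all centres. The Ezh2 stretch and the internal Bcor stretch held none of the 7 motifs.

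Of the 67 member peaks, 0 passed an adjusted p of 0.01 between C and WT, where 0.16% of all peaks did, and 0 between K and WT, where 1.48% did. Between CK and WT 6 passed, 2 higher and 4 lower, which is 8.96% of the members beside 6.84% of all peaks (3.54% higher and 3.3% lower). The test was edgeR's quasi-likelihood F test over all 65483 peaks with Benjamini-Hochberg adjustment. At an unadjusted p under 0.05 stood 4, 15 and 19 of the 67 in C, K and CK, beside 8.9%, 20.6% and 28.9% of all peaks. DESeq2 called 0, 0 and 7, beside 0.275%, 2.66% and 8.05%. Between CK and C 2 members passed (1.68% of all peaks), and between K and C 0 (0.788%). Between CK and K 0 passed (0.00916%), and 0 differed in CK from the added effects of C and K (0.0107%), where all peaks gave almost no calls either. Across the 4 genotypes in 1 test 4 members passed (5.62%). In sorted bulk cells a smaller share of cells with an open site and a less open site in each cell cannot be told apart. With the replicate number as a block, which pairs WT, C and K mice here, 1 Ncor1 peak was called lower in K than in WT and in C, as described with Ncor1, where the block raised the calls over all peaks to 3.28% and 2.15%.

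**Figure D1:**
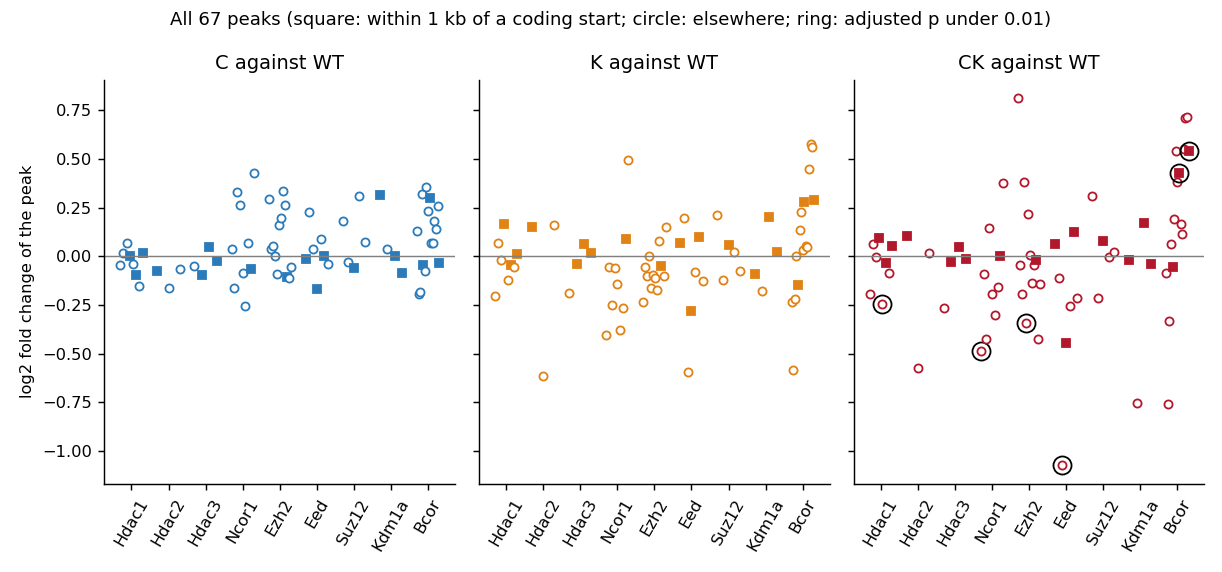
Log2 fold change of each of the 67 peaks (vertical axis) against WT, by member (horizontal axis), in C, K and CK. Rings mark the 6 peaks past an adjusted p of 0.01, all in CK: 4 below zero away from coding starts and 2 above zero at coding starts of Bcor.

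The median log2 fold change of the 67 peaks was 0.02 in C, -0.05 in K and -0.02 in CK, beside -0.0003, 0.0015 and 0.0029 over all peaks. The members split by position in CK. The 48 peaks away from any coding start had a median of -0.09, 29 of them below zero, against -0.03 for the 51536 such peaks in the table, and 4 of them were called lower (3.9% of such peaks were). The 19 at a coding start of the member or a neighbour included both called gains. Every CK mouse exceeded every WT mouse at 4 of the 67 peaks (5.97%, beside 6.59% of all peaks), and lay below every WT mouse at 2 (2.99%, beside 6.39%). Every K mouse did so at 7 above (10.45%, beside 5.42%), all but those of Suz12 and Kdm1a in Bcor, and at 0 below, a split whose share over all peaks is not given. For C there were 3 above (4.48%, beside 2.89%) and 2 below (2.99%, beside 2.77%). For splits of K or CK from the C mice, given at single peaks below, the share over all peaks was not computed.

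The promoter peaks of the 9 members, the strongest peak at a coding start of each, were open in every library and none was called in any comparison under TMM scaling, the trimmed-mean scaling of edgeR. In the 4 WT mice their level per kilobase of peak was 39.9 CPM at Hdac1 (SD 1.89), 39.9 at Ezh2 (SD 1.36) and 39.4 at Suz12 (SD 2.29). Those 3 do not differ beyond their spread. Eed followed with 31.45 CPM per kilobase (SD 2.64), Hdac2 with 28.0 (SD 2.13), Ncor1 with 25.4 (SD 0.805) and Hdac3 with 24.9 (SD 0.796), and in range Eed overlapped Hdac2 and the last 3 overlapped each other. Bcor stood at 20.6 CPM per kilobase (SD 3.83), its highest mouse within the range of Hdac3, and Kdm1a lowest, at 13.45 (SD 0.402). The Bcor peak used here covers an internal start. The 2 other Bcor starts, weaker and both called higher in CK, are described with Bcor and are not among these 9. The log2 fold changes of the 9 promoters ran from -0.11 to 0.05 in C, -0.15 to 0.20 in K and -0.06 to 0.17 in CK, where 1.92% and 9.74% of the promoter peaks of all coding genes were called higher in K and CK.

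**Figure D2:**
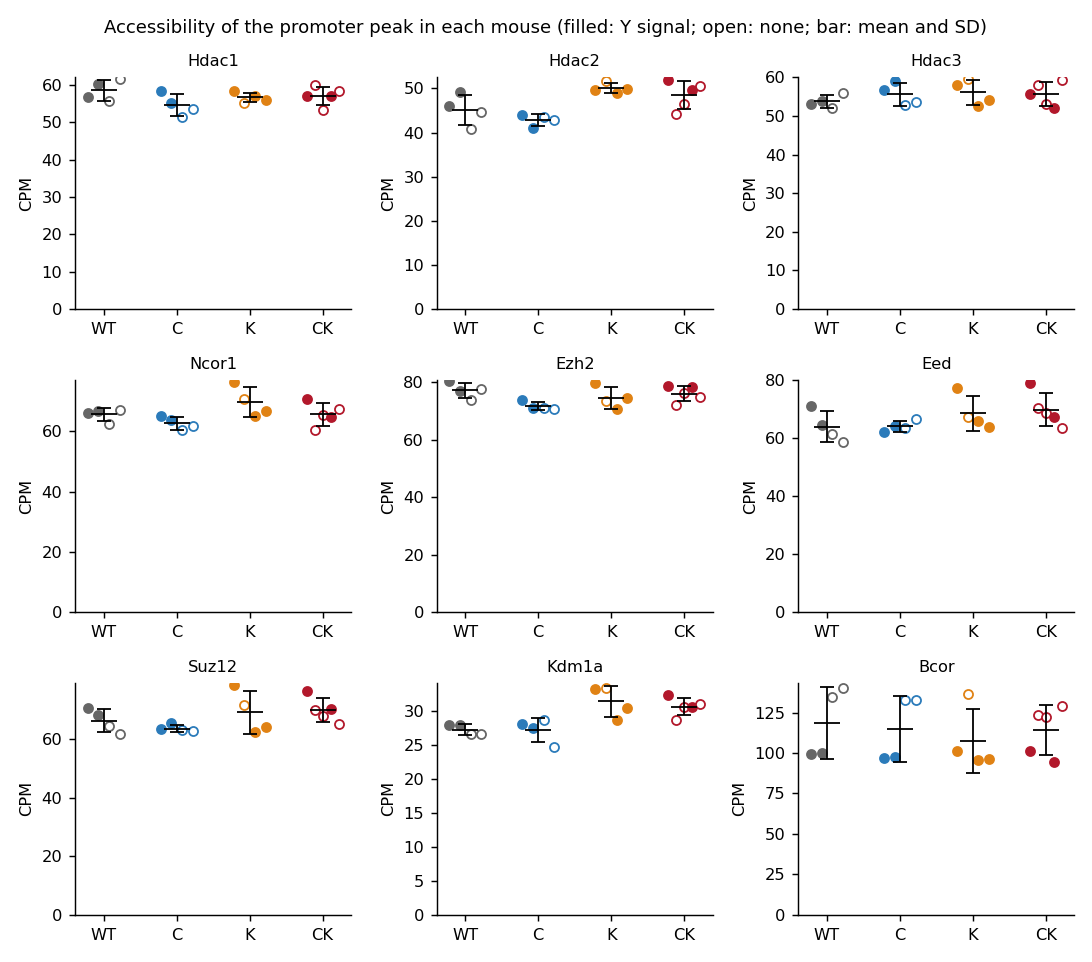
Accessibility of the promoter peak of each member in CPM (vertical axis, from 0) in each mouse of the 4 genotypes, with the mean and SD; filled points are the 9 libraries with Y signal and open points the 8 without. The groups overlap at 8 of the 9 promoters for CK against WT, the exception being Kdm1a, and at Bcor the points follow the Y signal.

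The sign of these promoter changes depended on scaling. Promoter DNA is rich in G and C, and over all peaks the median log2 fold change of CK against WT was -0.08 where GC content was under 45%, -0.0033 from 45% to 55% and 0.10 above 55%. The 27 members of low GC content had a median of -0.16, the 19 in between 0.0065 and the 21 of high GC content 0.09. With the libraries aligned to each other within 20 bins of GC content, 7 of the 9 promoters lay below zero in CK in place of 3, and the promoters of Ezh2 (log2 fold change -0.31, edgeR adjusted p = 1e-05) and Suz12 (-0.21, adjusted p = 0.00112) were called lower. Calls over all peaks then stood at 1469 higher and 3340 lower, in place of 2320 and 2158. Among the members 6 peaks were called (7.34% of all peaks were), all lower, but only 3 of them were among the 6 called under TMM scaling. The intronic Ezh2 peak and the 2 Bcor peaks were no longer called. Besides the Ezh2 and Suz12 promoters, a peak of the Hdac1 window at a start of Marcksl1 was newly called (-0.20, edgeR adjusted p = 0.00258). A direction for the promoters is therefore given below only as a value under TMM scaling.

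**Figure D3:**
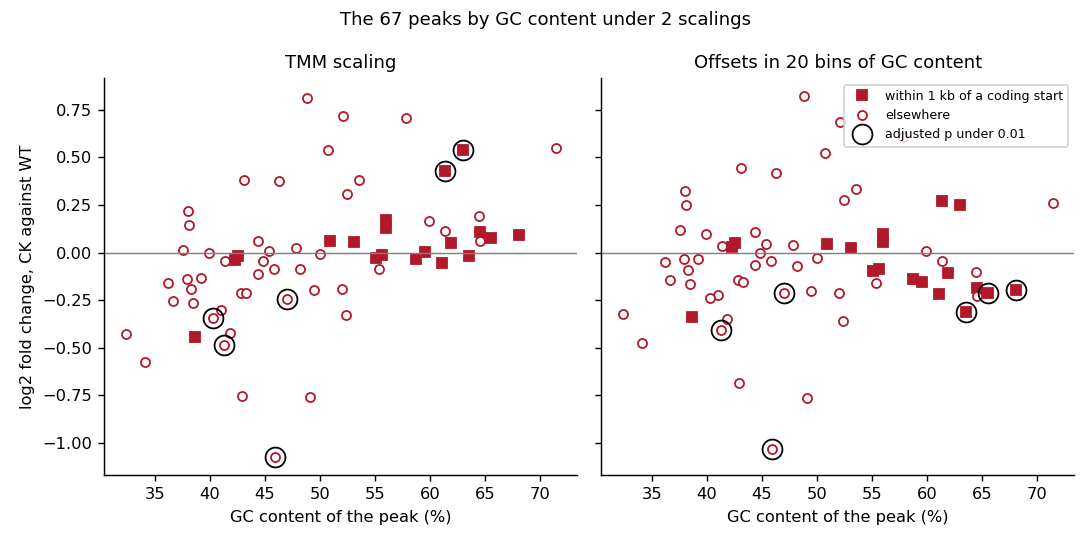
Log2 fold change of CK against WT (vertical axis) against GC content of the peak in percent (horizontal axis) for the 67 peaks, under TMM scaling on the left and with offsets in 20 bins of GC content on the right. Rings mark adjusted p under 0.01: 2 peaks above zero and 4 below on the left, 6 below zero on the right.

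The promoters of Hdac2 and Suz12, the 2 whose sign turned most, are shown with that of Kdm1a, which kept its sign in K and CK. These are the 250 bases before the RefSeq start (GRCm38.p6), and capitals mark the CCAAT motif (NF-Y) or GGGCGG (SP and KLF) on either strand.
Hdac2, chr10:36974294-36974543: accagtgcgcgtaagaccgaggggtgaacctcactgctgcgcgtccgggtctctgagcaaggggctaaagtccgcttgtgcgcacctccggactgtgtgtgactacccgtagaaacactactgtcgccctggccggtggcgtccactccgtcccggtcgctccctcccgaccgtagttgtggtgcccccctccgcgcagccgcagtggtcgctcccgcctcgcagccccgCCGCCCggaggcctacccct
Suz12, chr11:79992856-79993105: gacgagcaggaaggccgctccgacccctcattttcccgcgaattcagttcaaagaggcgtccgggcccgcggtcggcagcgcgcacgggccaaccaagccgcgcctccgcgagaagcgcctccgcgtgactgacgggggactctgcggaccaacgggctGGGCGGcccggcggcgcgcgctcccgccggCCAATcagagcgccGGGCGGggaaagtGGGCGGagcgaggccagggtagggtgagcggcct
Kdm1a, chr4:136602724-136602973: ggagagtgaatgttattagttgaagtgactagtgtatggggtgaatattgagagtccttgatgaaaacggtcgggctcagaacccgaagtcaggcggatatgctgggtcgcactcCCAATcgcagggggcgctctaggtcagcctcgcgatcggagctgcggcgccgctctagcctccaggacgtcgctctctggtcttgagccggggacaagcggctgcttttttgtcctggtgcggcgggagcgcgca
Suz12 held 3 copies of GGGCGG and 1 CCAAT, Hdac2 held 1 GGGCGG and Kdm1a 1 CCAAT. Across 32841 RefSeq promoters 32.7% held GGGCGG and 33.9% held CCAAT. The ETS motif CCGGAAGT (2.88%), the NRF1 motif GCATGCGC (2.26%), the E2F motif TTTNGCGC (1.13%) and the YY1 motif AAGATGGCG (0.603%) were in none of the 3. The GC content of these stretches was 68.8%, 73.6% and 59.2%.

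Among the deacetylases, 1 peak fell in CK, inside an intron of Hdac1 and 17.1 kb from the gene start (chr4:129525062-129526166, GC content 47.0%). It measured 47.4, 46.5, 43.8 and 46.7 CPM in WT, 44.3, 46.4, 44.2 and 44.6 in C, 41.6, 39.3, 44.1 and 44.3 in K, while the CK mice had 42.2, 36.7, 38.8, 39.2 and 37.6. All 5 CK mice lay below all WT and all C mice, while C overlapped WT and K lay between. The log2 fold change was -0.24 (SE 0.05, 95% interval -0.35 to -0.14, edgeR adjusted p = 0.00154) in CK, -0.12 (SE 0.05) in K and -0.04 (SE 0.05) in C. It remained called without any single library and under all scalings tried.

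The Hdac1 promoter peak (chr4:129541785-129543249), over the first exon, measured 55.7 to 61.5 CPM in WT, 51.4 to 58.3 in C, 55.2 to 58.3 in K and 53.3 to 59.8 in CK, 4 overlapping groups. At the Hdac2 promoter (chr10:36973853-36975465) the values were 46.0, 49.1, 40.9 and 44.6 CPM in WT, 44.0, 41.1, 43.5 and 42.9 in C, 49.7, 51.8, 49.0 and 49.9 in K, while the CK mice had 52.0, 44.2, 46.4, 49.7 and 50.6. Every K and every CK mouse exceeded every C mouse there, a split whose share over all peaks was not computed, and both overlapped WT. For K against C the log2 fold change was 0.23 (SE 0.06, edgeR adjusted p = 0.0256) and 0.18 (SE 0.05, adjusted p = 0.0417) for CK against C, neither of which passed 0.01. Summed over the 3 Hdac2 peaks the K to C difference was 0.22 (adjusted p = 0.0227), which did not pass. It was called with the replicate number as a block (0.22, edgeR adjusted p = 0.00875, beside 5.72% of all gene windows) and by DESeq2 (0.22, adjusted p = 0.00687, beside 3.47%).

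Hdac3 encodes the deacetylase bound to NCOR1. Its promoter peak (chr18:37954437-37956594), which also covers a start of Rell2, measured 52.0 to 56.1 CPM in WT and 52.1 to 59.5 in CK. The lowest p among its 4 peaks belonged to a peak downstream within Diaph1 (chr18:37923927-37926696), with 22.5 to 27.7 CPM in WT, 24.3 to 25.4 in C, 21.5 to 23.7 in K and 18.02 to 23.1 in CK. In CK the values overlapped WT at WT 1, and the log2 fold change of -0.27 (SE 0.07, edgeR adjusted p = 0.0151) did not pass, while DESeq2 called it (adjusted p = 0.0066).

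Ncor1 fell in CK, and under the block in K, at a peak over coding sequence in its 3′ part, 127.8 kb from the start (chr11:62330062-62331472). The values were 8.51, 12.9, 12.04 and 11.8 CPM in WT, 11, 11.4, 12.8 and 11.3 in C, 7.22, 8.27, 9.42 and 9.18 in K, while the CK mice had 7.39, 7.65, 8.90, 8.12 and 8.35. All K and CK mice lay below all C mice, and below WT apart from WT 1, whose value fell among theirs. The log2 fold change against WT was -0.48 in CK (SE 0.11, edgeR adjusted p = 0.00377), -0.41 in K (SE 0.12, adjusted p = 0.0380) and 0.04 in C (SE 0.11). CK against C gave -0.52 (SE 0.11, adjusted p = 0.00567) and K against C -0.44 (SE 0.11, adjusted p = 0.0296). With the replicate block K was called lower than WT (-0.40, edgeR adjusted p = 0.00998) and than C (-0.45, adjusted p = 0.00615). The CK call was lost without WT 2, WT 3, WT 4 or CK 1 (adjusted p 0.0123 to 0.0201), and CK against C was lost without C 1, C 2, C 3, C 4, CK 1, CK 2 or CK 4 (0.0108 to 0.0243). Within bins of GC content CK against WT stayed called (-0.41, edgeR adjusted p = 0.00746) and CK against C did not (-0.44, adjusted p = 0.0131).

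The other Ncor1 peaks moved less. Its promoter peak (chr11:62456345-62458926), shared with a start of Pigl, gave 62.6 to 67.2 CPM in WT, 60.4 to 65.1 in C, 65.2 to 76.3 in K and 60.5 to 70.8 in CK. Of the 9 peaks 6 were below zero in CK, with a median of -0.16. Summed over the 8 peaks without the promoter, Ncor1 was the single member whose window was called, -0.32 in CK against WT (edgeR adjusted p = 0.00627) and -0.38 against C (adjusted p = 0.00480), where 10% and 2.21% of all such windows were called. With the promoter included it was not (-0.06, SE 0.04, adjusted p = 0.231). The called 3′ peak carried the largest part of the sum without the promoter, at 9.77 CPM on average, where each of the others had 0.37 to 1.87. The window call thus rests largely on the same counts as the peak call.

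**Figure D4:**
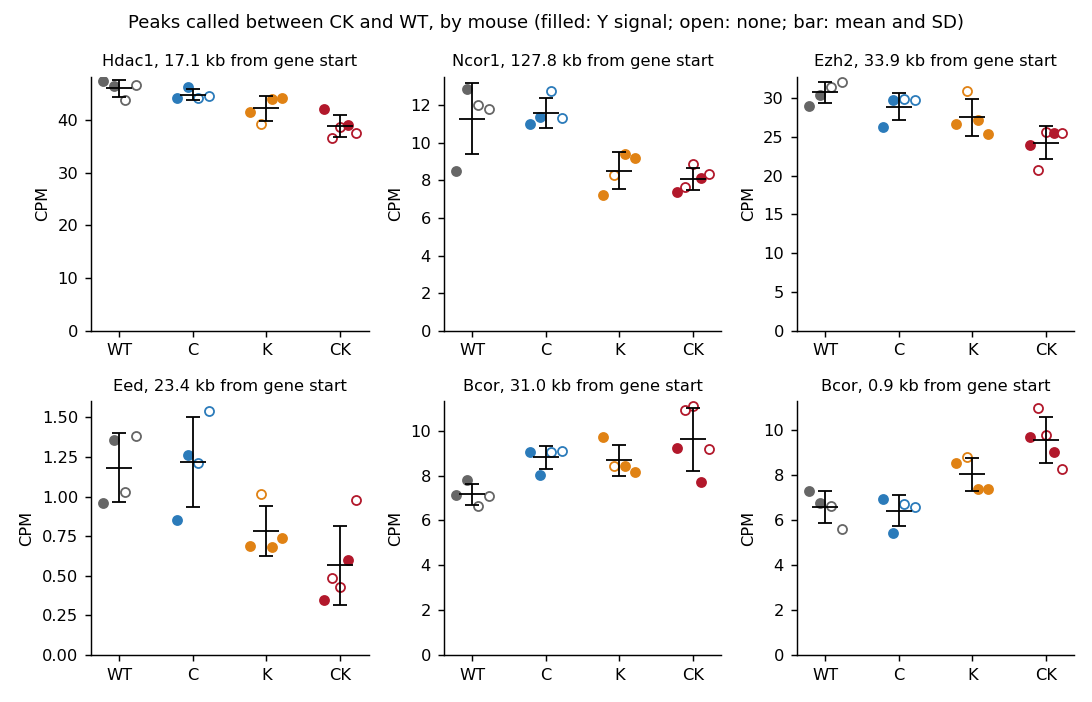
CPM (vertical axis, from 0) in each mouse of the 4 genotypes at the 6 peaks called between CK and WT, with mean and SD; filled points are libraries with Y signal, open points without. CK lies below all WT mice at the Hdac1 and Ezh2 peaks and above all of them at the Bcor peak near the gene start, while 1 mouse of WT or CK overlaps the other group at the remaining 3.

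Ezh2, the catalytic subunit of PRC2, showed the second loss that every CK mouse shared, at an intronic peak 33.9 kb from the start (chr6:47559935-47562866, GC content 40.3%). It measured 29.0, 30.4, 31.4 and 32.1 CPM in WT, 26.3, 29.7, 29.9 and 29.7 in C, 26.6, 30.9, 27.2 and 25.4 in K, while the CK mice had 24.0, 20.7, 25.6, 25.5 and 25.5. The CK mice lay below every WT and every C mouse. The log2 fold change was -0.34 in CK (SE 0.07, 95% interval -0.48 to -0.20, edgeR adjusted p = 0.00144), -0.16 in K (SE 0.07) and -0.09 in C (SE 0.07). Leaving out any single library kept the call, but aligning libraries within bins of GC content left -0.24 with adjusted p = 0.0106. The promoter peak of Ezh2 (chr6:47594007-47595944) had 73.91 to 80.3 CPM in WT, 70.8 to 73.86 in C, 70.7 to 79.7 in K and 72.0 to 78.7 in CK. C lay just below WT there, with 4 of 4 C mice under the lowest WT value (2.77% of all peaks had such a split), but at a log2 fold change of -0.11 (SE 0.04, edgeR adjusted p = 0.456). The other 10 Ezh2 peaks, 1 at 4.12 fragments per library on average, had no call under TMM scaling without the block. DESeq2 and the block each called 1 of them (chr6, start 47582464) lower in CK than in C. C measured 7.38 to 7.69 CPM there, WT 4.84 to 7.14 and CK 4.04 to 6.40. Against WT its log2 fold change was 0.34 in C (edgeR adjusted p = 0.433) and -0.14 in CK (adjusted p = 0.541).

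Eed, which binds the methyl mark that PRC2 lays down, fell in CK at an intronic peak of few reads (chr7:89957169-89958019, 23.4 kb from the start, 17.9 fragments per library on average). The values were 0.958, 1.36, 1.03 and 1.38 CPM in WT, 0.850, 1.26, 1.21 and 1.54 in C, 0.690, 1.02, 0.680 and 0.738 in K, while the CK mice had 0.345, 0.485, 0.426, 0.598 and 0.980. CK 5 lay within the WT range and the other 4 CK mice below it. Against WT the log2 fold change was -1.07 in CK (SE 0.27, edgeR adjusted p = 0.00795), -0.60 in K (SE 0.27) and 0.04 in C (SE 0.25). At this depth the call rests on single mice: it was lost without WT 2, WT 3, WT 4, CK 1, CK 2, CK 3 or CK 4, with adjusted p of 0.0136 to 0.0351. The Eed promoter peak (chr7:89979721-89981755) ranged from 58.6 to 71.1 CPM in WT and 63.5 to 79.1 in CK, and 5 of the 7 Eed peaks lay below zero in CK.

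Suz12, the subunit that holds PRC2 together, had no call under TMM scaling without the block. Its promoter peak (chr11:79992422-79994105) gave 61.8 to 70.5 CPM in WT, 62.6 to 65.4 in C, 62.5 to 78.3 in K and 65.0 to 76.3 in CK. The lowest p was at a peak in the upstream flank (chr11:79973036-79974608) with 7.88, 7.62, 7.08 and 6.81 CPM in WT and 8.96, 9.15, 11.1, 8.92 and 7.26 in CK. CK 3 was highest, CK 5 overlapped WT, and the log2 fold change of 0.31 (SE 0.11, edgeR adjusted p = 0.0542) did not pass. With the replicate block it was called (0.38, edgeR adjusted p = 0.00976), but CK 5, alone in its block, has no weight there. Within bins of GC content the promoter was called lower, as given above.

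The Kdm1a promoter peak (chr4:136601099-136603131) lay at the gene of a demethylase of the CoREST complex. Weaker Bcor starts, outside the 9 promoter peaks, had larger log2 fold changes (0.29 and 0.28 in K, 0.54 and 0.43 in CK). Among the 9, the Kdm1a peak had the largest in K and CK. It measured 28.0, 28.0, 26.6 and 26.6 CPM in WT, 28.2, 27.6, 28.8 and 24.8 in C, 33.3, 33.4, 28.7 and 30.5 in K, while the CK mice had 32.4, 28.8, 30.6, 30.7 and 31.1. Every K and every CK mouse exceeded every WT mouse (5.42% and 6.59% of all peaks had such a split). The log2 fold change was 0.20 in K (SE 0.06, edgeR adjusted p = 0.0549) and 0.17 in CK (SE 0.06, adjusted p = 0.0541), which did not pass, and 0.0012 in C. Within bins of GC content the CK value was 0.10 (adjusted p = 0.279). A different Kdm1a peak (chr4, start 136569990) was called lower in CK than in WT with the replicate block (-1.06, edgeR adjusted p = 0.00699). Without the block, which gives CK 5 no weight, it was not called (-0.75, edgeR adjusted p = 0.117). This peak is weak, with a mean of 1.10 CPM in libraries with Y signal and 1.18 in those without.

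Bcor, whose product joins BCL6 to a variant polycomb complex 1, held both gains. The first lay over the gene's most upstream start (chrX:12158300-12160619, GC content 63.0%), which measured 7.29, 6.74, 6.61 and 5.59 CPM in WT, 6.94, 5.41, 6.72 and 6.58 in C, 8.54, 8.78, 7.38 and 7.38 in K, while the CK mice had 9.70, 10.98, 9.75, 9.02 and 8.24. All CK and all K mice exceeded all WT and all C mice. Against WT the log2 fold change was 0.54 in CK (SE 0.11, 95% interval 0.32 to 0.76, edgeR adjusted p = 0.00147), 0.29 in K (SE 0.12, adjusted p = 0.148) and -0.03 in C (SE 0.12). CK against C gave 0.57 (SE 0.11, adjusted p = 0.00291), and CK against K 0.25 (SE 0.11, adjusted p = 0.580). The CK call was lost without WT 4 (0.47, adjusted p = 0.0105), and the CK to C call without C 2, C 4 or CK 1 (adjusted p 0.0103 to 0.0173).

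The second gain lay at an internal start 31.0 kb into Bcor (chrX:12128113-12130522, GC content 61.3%), with 7.13, 7.78, 6.66 and 7.09 CPM in WT, 9.06, 8.03, 9.05 and 9.08 in C, 9.71, 8.44, 8.43 and 8.17 in K, while the CK mice had 9.21, 10.9, 11.1, 7.72 and 9.16. Here C (2.89% of all peaks had such a split) and K also exceeded every WT mouse, while CK 4 overlapped WT. The log2 fold change was 0.43 in CK (SE 0.11, edgeR adjusted p = 0.00751), 0.30 in C (SE 0.11, adjusted p = 0.386) and 0.28 in K (SE 0.11, adjusted p = 0.148). Leaving out WT 1, WT 2, WT 3, WT 4, C 4, CK 1, CK 2 or CK 3 put its adjusted p between 0.0100 and 0.0315. Within bins of GC content the gains at both Bcor starts shrank to 0.25 (edgeR adjusted p = 0.108) and 0.27 (adjusted p = 0.0809) and were not called, nor was the first between CK and C. In all, 11 of the 15 Bcor peaks were above zero in CK under TMM scaling, with a median of 0.19. The count was not particular to CK: 11 were above zero in K (median 0.05) and 10 in C (median 0.13).

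The strongest Bcor peak, which covers a further internal start 80.5 kb into the gene (chrX:12076976-12082733), followed the Y signal and not the genotype. It measured 94.4 to 101.3 CPM (mean 98.0, SD 2.49) in the 9 libraries with Y signal and 122.5 to 140.4 (mean 131.5, SD 6.23) in the 8 without, a ratio of 1.34 with no overlap. Of the 15 Bcor peaks 2 separated the libraries in this way, as did 4.76% of the 1575 X chromosome peaks and 0 of the 52 member peaks on other chromosomes. Against WT this peak gave log2 fold changes of -0.05 in C, -0.15 in K and -0.06 in CK, each with an SE of 0.12 to 0.13. With the Y signal as a factor these were -0.04, -0.03 and -0.09, with an SE of 0.04, and none was called. The 2 called Bcor peaks did not follow the split: their mean was 1.04 and 1.07 times as high without as with Y signal. With the factor in the fit their CK gains were 0.54 (edgeR adjusted p = 0.00113) and 0.42 (adjusted p = 0.00659), and 6 of 6 calls between CK and WT were kept.

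**Figure D5:**
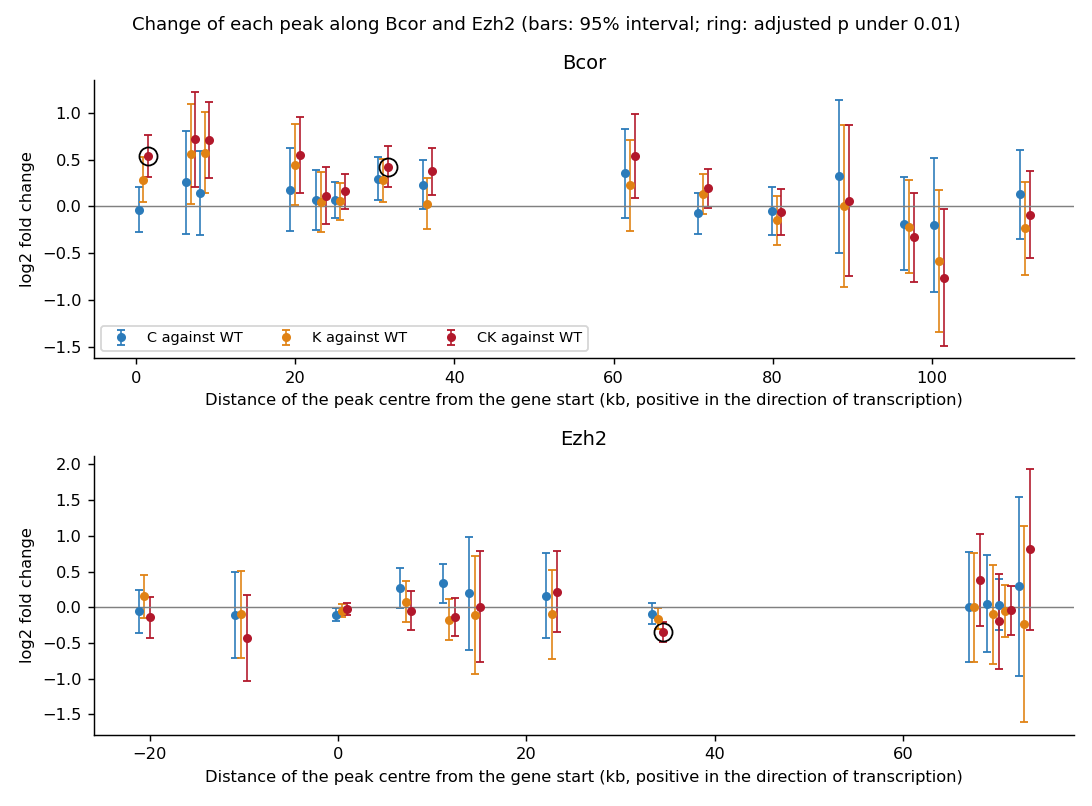
Log2 fold change against WT with its 95% interval (vertical axis) for each peak of Bcor and Ezh2 in C, K and CK, by distance of the peak centre from the gene start in kb (horizontal axis). Rings mark the calls: in Bcor the peaks at 0.9 and 31.0 kb, above zero, and in Ezh2 the peak at 33.9 kb, below zero.

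Summed over all peaks of its gene window, no member passed the test without the block, Hdac2 being called for K against C with it and by DESeq2, while 0.332%, 2.95% and 11.8% of all 17156 gene windows were called in C, K and CK against WT, 0.863% and 4.21% in K and CK against C, and 10.8% for any genotype. The largest sizes in CK were 0.13 at Kdm1a (SE 0.05, edgeR adjusted p = 0.0956), -0.10 at Ezh2 (SE 0.04, adjusted p = 0.0553) and 0.10 at Hdac2 (SE 0.05, adjusted p = 0.191). At Hdac1, Hdac3 and Ncor1 the 95% interval of the CK difference stayed between -0.14 and 0.04. The Bcor sum ranged from 190.7 to 270.2 CPM with wide spread within each genotype, its SE of 0.10 being the largest of the 9.

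The 48 other genes of these complexes that were listed with the members all had a promoter peak. None was called in C or in K, where 0.122% and 2.12% of all coding promoters were, and 1 was called in CK, where 10.6% were. It was Aebp2, a PRC2 accessory subunit, at 41.3 CPM in WT (SD 3.71, n = 4) and 51.4 in CK (SD 5.05, n = 5), a log2 fold change of 0.32 (SE 0.08, edgeR adjusted p = 0.00756). The median log2 fold change in CK was 0.07 over the 48, beside 0.06 over all 12318 coding promoters, and lay between 0.0023 for the 8 other histone deacetylases and 0.14 for the 8 genes of polycomb complex 1 with BCOR. The strongest promoter peak of each group stood at 185 CPM in WT for Sin3a (SIN3), 130 for Mbd3 (NuRD), 116 for Hdac4 (other deacetylases), 104 for Rbbp4 (PRC2), 103 for Hmg20b (CoREST), 76.8 for Kdm2b (polycomb complex 1 with BCOR) and 68.4 for Tbl1xr1 (the NCOR1 complex), and none of these 7 was called. Within bins of GC content 39 of the 48 lay below zero in CK in place of 10, with 12 called lower and Aebp2 no longer called higher. Over all 65483 peaks this fit called 3340 lower in place of 2158. The share among all coding promoters was not computed, so the 12 are not read as particular to these genes.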

How the data were processed

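ATAC-seq (Omni-ATAC) counts of 17 libraries were used. The deposited table holds raw fragment counts per consensus peak, made by the authors with the nf-core ATAC-seq pipeline 1.2.1 on mm10 and featureCounts 2.0.1, which counted a fragment in every peak that held at least 0.2 of it. Sorted centroblast and centrocyte libraries of the series were not analysed here. GENCODE M21 on GRCm38 gave gene bodies and coding starts. The members and all gene lists were chosen with earlier results of these data known.

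All 65483 peaks were fitted in R 4.3.3 with edgeR 4.0.16 (TMM scaling, genotype as the only term, quasi-likelihood F test, Benjamini-Hochberg adjustment over all peaks, call at 0.01), and the method was tested on simulated data. The SE is the log2 fold change divided by the root of F. CPM are TMM-scaled. Gene windows sum the counts of all peaks within 20 kb of a gene body. The p-values weigh each difference against counting error and the spread between mice together, and counting error is the larger part at peaks of fewer fragments than at strong ones.

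Peaks were named by rule: the promoter peak of each member (the strongest within 1 kb of a coding start), each member peak called in any comparison, and the peak of lowest p in CK against WT for each member. List genes were named where called, or where strongest in their complex. The Ezh2 low-count peak and the groups of Bcor peaks were singled out after their values were seen. Same-number libraries of WT, C and K deviated together (lowest r above 0.1 over 20000 peaks), so the number was taken as a pairing of those 3 genotypes. With CK the lowest r was -0.049, so a pairing of CK mice by number was not established. The block fit still placed CK 1 to CK 4 in the blocks of their numbers. CK 5, the only library of its number, had no weight in the CK comparisons under the block. Alternatives were DESeq2 1.42.0, other scalings, offsets in 20 bins of GC content, a count filter, other thresholds, a replicate block, the Y signal as a factor, only the genotypes compared, other windows and each library left out. Sequences came from GRCm38 and, for promoters, RefSeq, which matched 7 of the 9 members.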

Additional observations from a re-analysis of the deposited data

Results flagged for a closer look

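In 5 of 104 groups of mice at the named peaks and gene windows, 1 mouse stood apart from the others of its genotype by the gap test, and chance alone flags about 1 group in 20. At the Ezh2 promoter C 1 was highest with 73.86 CPM, where the other C mice had 70.8 to 71.1, and at the called intronic Ezh2 peak the same mouse was lowest with 26.29 CPM against 29.7 to 29.9. At the called Eed peak K 2 was highest with 1.019 CPM against 0.680 to 0.738. At the strongest Bcor peak K 2 was highest with 136.5 CPM against 95.4 to 101.3, and it is the single K library without Y signal. At the internal Bcor start C 2 was lowest with 8.03 CPM against 9.05 to 9.08.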

How the results depend on the processing

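Among the count results, 468 settings kept their value within 1.5 times and 55 did not. The member levels of all 36 promoter and genotype pairs moved by less than 1 SD with library totals as scaling. Of the 6 calls between CK and WT, library totals, DESeq2 size factors, loess offsets, the count filter and the Y signal kept all. The fit on the 2 genotypes alone kept 4, and bins of GC content kept 3. At an adjusted p of 0.05 there were 12 (5 higher, 7 lower), 1 in K, 8 in CK against C, 3 in K against C and 13 for any genotype, beside 15.4%, 5.38%, 6.68%, 3.62% and 13.2% of all peaks. A fold above 1.5 left 1 in CK, 0 in CK against C. Bins of GC content gave 1 in K (1.66%), 0 in CK against C, and 4 and 12 listed genes lower in K and CK. Over all 65483 peaks 820 and 3340 were then lower. DESeq2 gave 1 member in K against C (1.78% of all peaks), 5 in CK against C (3.21%), 2 listed genes in CK and 1 window in K against C. The Y signal gave 1 in K against C (0.733%), 5 in CK against C (2.93%) and 2 listed genes, and library totals 2 listed genes. Listed genes in CK were 7 at 0.05 and 0 with a fold above 1.5.

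With the replicate block the members called were 1 in K, 1 in K against C, 5 in CK against C and 9 in CK, while the calls over all peaks rose to 3.28%, 2.15%, 3.93% and 10.1%. It gave 3 listed genes in CK and 1 window in K against C. In its CK comparisons CK 5, the only library of its number, had no weight. Of 16 libraries 12 correlated best with their own number (median r 0.208 for same and -0.0644 for other numbers). Without promoter peaks 1 window was called in CK, 1 in CK against C and 1 for any genotype, beside 10%, 2.21% and 7.78% of such windows. At 0.05, 1 window was called in K against C, 1 in CK against C and 1 for any genotype, beside 7.41%, 14.2% and 22.2%. Leaving out 1 library each gave 2 to 7 calls in CK, 2 without WT 4 and 3 without WT 3 or CK 1, 0 to 1 in K, 0 to 3 in CK against C, 2 to 5 for any genotype, 0 to 1 windows for any genotype and 0 to 3 listed genes in CK.

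Values near zero changed sign. Bins of GC content gave -0.067 in K and -0.19 in CK at the Hdac2 promoter, -0.066 and -0.11 at Hdac3, -0.042 and -0.16 at Ncor1, -0.16 and -0.21 at Suz12, and in C -0.021 at Eed and -0.023 at Kdm1a. The cause was not tested. Ncor1 in CK was -0.0066 with the block and -0.0014 with the 2 genotypes alone, and Bcor in C 0.0043 with loess offsets. Leaving out 1 library gave -0.030 to 0.031 for the Ncor1 promoter in CK, -0.075 to 0.11 for the called Ncor1 peak in C, -0.036 to 0.057 for the Eed promoter and -0.089 to 0.18 for the called Eed peak in C, -0.0086 to 0.10 for the Suz12 promoter in K, -0.027 to 0.043 for Kdm1a in C, -0.13 to 0.042 in C and -0.13 to 0.032 in CK for the strongest Bcor peak, and -0.10 to 0.046 in C for the first Bcor start. Depth limits the called Eed peak, at 17.9 fragments per library.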
